A study of Mus musculus with 38 samples.

Results

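The genes described here are 38 genes of the endoplasmic reticulum (ER), the compartment in which a hepatocyte folds albumin and its other secreted proteins. They were taken from a list of gene symbols for ER chaperones, protein translocation and the unfolded protein response that was drawn up with earlier results of these data known; the rule itself uses no expression value. All 38 had a probe, among 22485 genes that had a probe. By role they were 9 luminal chaperones of the Hsp70 and Hsp90 systems with their cochaperones, 5 disulfide and proline isomerases, 2 lectin chaperones, 8 genes of ER-associated degradation, 3 sensors and transcription factors, and 11 genes of translocation and signal peptide cleavage.

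The RNA was from livers of male mice, 11 to 12 weeks old, of a background that mixed FVB/N with C57Bl/6. It had been hybridised to Agilent arrays, where each dye channel held the RNA of 1 mouse. Libraries are called by their titles, which end in the mouse number. LIRKO mice lacked the insulin receptor and LIRFKO mice the insulin receptor and FoxO1 in cells with albumin-Cre, that is, in hepatocytes, while IR floxed and IR/FoxO1 floxed mice carried the floxed alleles as controls. All were fasted, overnight or for 24 h depending on the label read. Some were then refed for 6 h, and some were given glucose 60 min before the liver was taken. Fasted, refed and glucose groups held 4, 4 and 3 IR floxed mice, 3, 4 and 3 LIRKO mice, and 3, 4 and 3 LIRFKO mice. The IR/FoxO1 floxed groups held 3 fasted and 3 refed mice, and no glucose group of that strain was analysed here. Liver cells in which albumin-Cre does not act kept both genes, and whole liver holds such cells too. All values are log2 expression, and changes are coefficients of the limma fit ± their standard error (SE). The fit allows for dye and for the array that a pair of mice shares, so a change can differ from the plain difference of the values listed beside it. Mean shifts over the genes, given by slide and over all libraries, are plain differences. "Rose" and "fell" are used where the Benjamini-Hochberg adjusted p over all genes was under 0.05. The number of mice limits the precision.

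When unfolded protein builds up in the ER, the sensors Ire1 (Ern1), Atf6 and Perk raise the genes that fold, export or degrade it. Ire1 splices Xbp1 mRNA into the form that encodes an active transcription factor, and Atf6 is cut from the membrane and moves to the nucleus. Both act through the ER stress response element (ERSE) in promoters of chaperone genes. In liver, feeding raises the synthesis of secreted protein and lipid, and insulin acts through its receptor to keep FoxO1 out of the nucleus. An array probe for Xbp1 reads its total mRNA and does not separate the spliced form.

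Insr and Foxo1 were read first, as a check of the labels. Insr lay between 7.36 and 9.05 in the libraries labelled floxed other than IRF.fl_Fast_523, and between 5.96 and 6.81 in LIRFKO mice. In LIRKO mice it lay between 6.30 and 7.81, and the library labelled IR.KO_GTT_690, at 7.81, lay within the range of the IR floxed mice (7.77 to 9.05). The library IRF.fl_Fast_523, labelled as a fasted IR/FoxO1 floxed control, had Insr at 6.90 and Foxo1 at 6.77, while Foxo1 in the other libraries of that group was 10.57 and 10.17 and in LIRFKO mice between 6.07 and 7.12. It is kept under its label, and the total of genes called on refeeding in IR/FoxO1 floxed mice is also given without it. Counts by role, shared calls, counts of groups that do not overlap and counts of signs are given with it only. Hepatocyte markers averaged 13.83 to 14.94 in every library, B and plasma cell markers 5.65 to 5.94, near the bottom of the scale. Pancreatic acinar markers (Cela1, Cela2a, Prss2, Cpa1, Ctrb1, Cel and Try4), which come with a secretory cell rich in ER chaperones, averaged over 7 in 4 libraries: 9.10 in fasted IR floxed mouse IR.fl_Fast_486, 10.53 in glucose IR floxed mouse IR.fl_GTT_659, 7.36 in fasted IR/FoxO1 floxed mouse IRF.fl_Fast_533 and 11.44 in refed LIRFKO mouse IRF.KO_Refed_478. They were at most 6.51 in the other 33. Among these, fasted LIRKO mouse IR.KO_Fast_505 averaged 6.47, against 5.84 and 5.87 in the other fasted LIRKO mice. Fasted IR floxed mouse IR.fl_Fast_552 averaged 6.51. Both mice stayed in the fits that leave out libraries over 7. Kupffer cell markers averaged 9.61 to 9.79 in refed LIRKO mice and 8.24 to 8.47 in refed IR floxed mice. In whole liver, fewer cells of a type and less RNA per cell cannot be told apart.

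Promoter windows of 300 bases, from 250 before to 50 after the RefSeq start (GRCm38.p6), were held for 29 of the 38 genes. The ERSE was searched on both strands as CCAAT, then 9 bases of any kind, then CCACG, so each match also holds both shorter motifs. It stood in 39 of 32851 windows (0.119%), and 9 of the genes had it: Hspa5, Hsp90b1, Dnajc3, Creld2, Pdia6, Calr, Canx, Derl3 and Syvn1. A second element, ERSE-II, searched as ATTGG, 1 base, then CCACG, stood in 12 windows (0.0365%), among them those of Dnajb11 and Herpud1. The element TGACGTGG stood in 0.676% of windows and in none of these genes, and CCACG alone in 32.8% of windows and in 25 of the 29. A match describes letters and not binding. The windows below are those of the genes on which the results turn, and are written 5′ to 3′ along the gene with the fixed letters of ERSE or ERSE-II in capitals. Hspa5 encodes BiP, the main ER Hsp70 (chr2:34771840-34772139, plus strand, ERSE from position -65 to -47, the start being position 0).
Hspa5: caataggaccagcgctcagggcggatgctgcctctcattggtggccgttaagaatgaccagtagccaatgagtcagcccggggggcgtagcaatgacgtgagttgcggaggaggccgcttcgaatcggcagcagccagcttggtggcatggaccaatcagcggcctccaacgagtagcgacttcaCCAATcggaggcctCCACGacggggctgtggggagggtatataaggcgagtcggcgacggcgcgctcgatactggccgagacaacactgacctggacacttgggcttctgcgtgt
Hsp90b1 encodes Grp94, the ER Hsp90, and had an ERSE in each orientation (chr10:86705395-86705694, minus strand).
Hsp90b1: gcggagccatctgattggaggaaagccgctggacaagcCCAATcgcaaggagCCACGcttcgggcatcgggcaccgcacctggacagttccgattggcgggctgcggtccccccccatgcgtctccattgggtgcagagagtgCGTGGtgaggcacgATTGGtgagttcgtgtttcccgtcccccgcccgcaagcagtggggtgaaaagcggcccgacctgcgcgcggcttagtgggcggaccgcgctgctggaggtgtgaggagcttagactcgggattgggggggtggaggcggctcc
Creld2, a small ER protein with an isomerase role, had its ERSE in reverse orientation (chr15:88819396-88819695, plus strand, position -126 to -108).
Creld2: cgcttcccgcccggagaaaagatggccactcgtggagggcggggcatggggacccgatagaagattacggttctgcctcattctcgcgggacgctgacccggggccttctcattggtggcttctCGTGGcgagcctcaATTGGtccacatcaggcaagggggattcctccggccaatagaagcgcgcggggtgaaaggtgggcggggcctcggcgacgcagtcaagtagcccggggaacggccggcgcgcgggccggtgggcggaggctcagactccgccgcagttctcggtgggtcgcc
Derl3 encodes a membrane protein of ER-associated degradation (chr10:75893148-75893447, plus strand, reverse ERSE from -156 to -138).
Derl3: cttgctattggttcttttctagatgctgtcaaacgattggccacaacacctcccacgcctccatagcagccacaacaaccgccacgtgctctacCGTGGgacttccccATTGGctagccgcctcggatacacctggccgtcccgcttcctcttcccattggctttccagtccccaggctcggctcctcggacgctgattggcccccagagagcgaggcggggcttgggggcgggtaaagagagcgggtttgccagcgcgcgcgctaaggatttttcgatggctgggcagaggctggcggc
Dnajb11, a cochaperone of BiP, carried ERSE-II just after its start (chr16:22857595-22857894, plus strand, position 7 to 17).
Dnajb11: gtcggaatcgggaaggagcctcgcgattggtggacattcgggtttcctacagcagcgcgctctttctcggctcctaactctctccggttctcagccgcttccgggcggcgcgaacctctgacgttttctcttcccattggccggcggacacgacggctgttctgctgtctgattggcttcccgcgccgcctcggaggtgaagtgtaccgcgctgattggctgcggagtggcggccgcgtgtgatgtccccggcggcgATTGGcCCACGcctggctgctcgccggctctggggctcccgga
Herpud1, a membrane protein that organises the degradation complex, carried ERSE-II before its start (chr8:94386179-94386478, plus strand, position -52 to -42). Its expression went its own way, as described below.
Herpud1: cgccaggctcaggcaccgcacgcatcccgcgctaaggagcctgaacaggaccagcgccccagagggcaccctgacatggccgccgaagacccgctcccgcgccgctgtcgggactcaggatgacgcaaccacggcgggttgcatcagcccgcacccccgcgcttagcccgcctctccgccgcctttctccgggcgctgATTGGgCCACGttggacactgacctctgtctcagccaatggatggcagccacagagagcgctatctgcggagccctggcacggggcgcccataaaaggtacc

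Most of these genes rose on refeeding in floxed mice. In IR floxed mice 25 of the 38 rose and 0 fell, against 2.12% of all genes that rose and 1.49% that fell, with a median change of 0.83 over the 38 and 0.00 over all genes. In IR/FoxO1 floxed mice, a separate set of animals, 22 rose and 0 fell (2.02% and 1.52% of all genes), with a median of 0.70. Both comparisons called 20 of the genes, 80.0% of the first list and 90.9% of the second. The second list includes calls that need IRF.fl_Fast_523, the fasted control library with low Insr and Foxo1. Without that library 10 genes rose in IR/FoxO1 floxed mice, and the shared calls were not counted anew. The mean over the 38 genes was 10.22, 10.30, 10.63 and 10.69 in fasted and 11.10, 11.23, 11.59 and 11.75 in refed IR floxed mice, with no overlap. The other floxed strain had 10.20, 10.21 and 10.22 fasted and 11.01, 11.07 and 11.40 refed. In 23 and 31 of the genes respectively every refed library lay above every fasted one, as did 4.02% and 9.11% of all genes. Of the 100 largest rises in IR floxed mice among all genes, 13 were of these genes. Within the slides that held both states the mean shift over the 38 was 1.18 and 1.37 in IR floxed and 0.86 in IR/FoxO1 floxed mice (0.96 and 0.95 over all libraries).

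**Figure D1:**
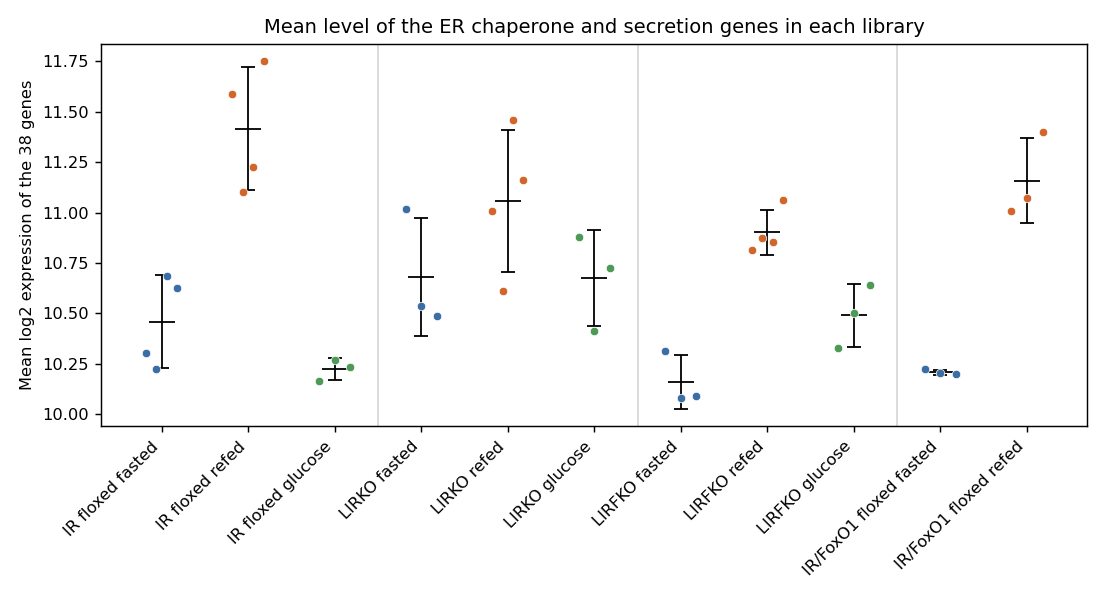
Mean log2 expression over the 38 ER genes (vertical axis) in each library (points) of the 11 groups (horizontal axis), with group mean and SD as bars. Refed floxed mice lie between 11.01 and 11.75, above all fasted floxed mice (10.20 to 10.69), while fasted and refed LIRKO mice overlap (10.49 to 11.02 and 10.61 to 11.46).

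The luminal chaperones moved most: 7 of 9 rose in IR floxed and 8 of 9 in IR/FoxO1 floxed mice, with medians of 1.42 and 1.47. Creld2 was 11.38, 11.80, 12.12 and 12.51 in fasted and 13.97, 14.36, 15.56 and 15.90 in refed IR floxed mice, a change of 2.95 ± 0.47 (adjusted p = 0.00058). The groups do not overlap, and the highest refed values come close to the top of the scale, where a rise can be understated. In IR/FoxO1 floxed mice Creld2 went from 10.93, 11.36 and 11.61 to 13.80, 14.01 and 14.74 (2.71 ± 0.54, adjusted p = 0.0039). Its rise was the 5th largest of all genes in IR floxed mice and the 13th in IR/FoxO1 floxed mice. The array carried 10 probes for Creld2, whose shifts in IR floxed mice ran from 2.90 to 3.16.

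Sdf2l1, a partner of BiP and the Dnajb cochaperones, was 7.42, 8.18, 9.23 and 9.31 in fasted and 10.13, 10.36, 11.65 and 11.96 in refed IR floxed mice (2.48 ± 0.47, adjusted p = 0.0029). Manf, a secreted ER stress protein that binds BiP, was 8.92, 10.39, 10.93 and 11.04 fasted and 11.56, 11.69, 13.11 and 13.76 refed (2.14 ± 0.40, adjusted p = 0.0025). In both genes the fasted mice were themselves widely spread, and yet no fasted mouse reached a refed one. The changes in IR/FoxO1 floxed mice were 2.59 ± 0.54 and 2.47 ± 0.46.

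Hspa5 was 13.43, 13.83, 13.87 and 13.88 in fasted and 14.53, 14.95, 15.87 and 15.90 in refed IR floxed mice (1.64 ± 0.35, adjusted p = 0.0070). Its highest refed values, like those of Creld2, come close to the top of the scale, so the rise can be understated. In IR/FoxO1 floxed mice it went from 12.22, 12.96 and 13.56 to 14.63, 14.69 and 14.74 (1.67 ± 0.40, adjusted p = 0.015). The lowest fasted value, 12.22, was that of IRF.fl_Fast_523, without which the change was 1.27 (adjusted p = 0.17). Hsp90b1 rose by 1.42 ± 0.30 and 1.45 ± 0.34, and Dnajb11 by 1.25 ± 0.23 and 1.47 ± 0.27. Dnajb11 had a dimmer probe that moved by -0.94 in IR floxed mice, against 1.27 for the probe used, so its probes disagree. Hyou1, the Grp170 cochaperone, rose by 0.94 ± 0.22 and 1.09 ± 0.26, at levels near the median of all genes (6.17). Dnajb9, an Ire1-binding cochaperone, did not pass in either strain (1.10 ± 0.35, adjusted p = 0.079, and 0.68 ± 0.39, adjusted p = 0.49): refed IR floxed mice gave 9.23, 10.03, 11.33 and 11.34, overlapping the fasted values of 9.20 to 9.80.

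Among the isomerases, Pdia3, Pdia4 and Pdia6 rose in both floxed strains and P4hb and Ppib did not pass in either. Pdia6 was 12.85, 12.89, 13.12 and 13.43 in fasted and 13.81, 14.35, 14.42 and 14.43 in refed IR floxed mice (1.24 ± 0.19, adjusted p = 0.00033), with no overlap and the smallest adjusted p of the 38. P4hb, which is also a subunit of prolyl hydroxylase, changed by 0.56 ± 0.19 (adjusted p = 0.097) and the cyclophilin gene Ppib by 0.56 ± 0.19 (adjusted p = 0.11). Of the lectin chaperones, which hold glycoproteins during folding, Calr rose by 1.13 ± 0.22 and 1.10 ± 0.25. Canx rose by 0.46 ± 0.13 in IR floxed mice (adjusted p = 0.041) and changed by 0.35 ± 0.15 in IR/FoxO1 floxed mice (adjusted p = 0.24).

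ER-associated degradation, which returns misfolded protein to the cytosol, was divided. In IR floxed mice 4 of its 8 genes rose, namely Derl3, Syvn1, Sel1l and Edem1, and in IR/FoxO1 floxed mice Derl2 and Derl3 did. Derl3 was 6.76, 7.56, 8.71 and 8.90 in fasted and 10.33, 10.78, 10.87 and 11.40 in refed IR floxed mice (2.91 ± 0.66, adjusted p = 0.012), and rose by 3.0 ± 0.76 in IR/FoxO1 floxed mice (adjusted p = 0.023). Syvn1, the ubiquitin ligase Hrd1, was 11.88, 11.90, 12.26 and 12.37 fasted and 12.37, 12.95, 14.35 and 15.33 refed (1.60 ± 0.39, adjusted p = 0.018). Its refed mice were far apart, and the lowest refed mouse was level with the highest fasted one. Herpud1 did not pass, at 12.48, 12.65, 13.21 and 13.55 fasted against 13.35, 13.43, 13.64 and 14.03 refed (0.83 ± 0.31, adjusted p = 0.16), and its change in IR/FoxO1 floxed mice was -0.32 ± 0.35 (adjusted p = 0.81).

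Of the sensors and factors only Xbp1 rose in either floxed strain. It was 12.77, 12.77, 12.78 and 12.93 in fasted and 13.33, 13.72, 14.13 and 14.21 in refed IR floxed mice (1.09 ± 0.20, adjusted p = 0.0018), and rose by 1.0 ± 0.22 in IR/FoxO1 floxed mice. Atf6 (0.01 ± 0.12) and Ern1 (0.03 ± 0.14), with Sec63 (0.00 ± 0.10), a translocon partner of BiP, had the smallest changes of the 38 in IR floxed mice. The 95% intervals were -0.24 to 0.27 for Atf6, -0.25 to 0.31 for Ern1 and -0.21 to 0.21 for Sec63. Ern1 in IR/FoxO1 floxed mice changed by 0.51 ± 0.16 (adjusted p = 0.071).

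The translocation genes that rose did so by less than the luminal chaperones that rose. In IR floxed mice 8 of 11 rose, with changes from 0.51 (Sec11c, a signal peptidase subunit) to 0.91 (Ssr1, a subunit of the translocon-associated complex), and in IR/FoxO1 floxed mice 7 did. Sec61b, a subunit of the channel through which nascent chains enter the ER, was 12.04, 12.19, 12.50 and 12.57 in fasted and 13.08, 13.11, 13.13 and 13.32 in refed IR floxed mice (0.87 ± 0.14, adjusted p = 0.00077). The refed values lie close together, in a far narrower range than those of Syvn1 in the same mice. Sec61a1, Sec61b, Sec61g, Ssr1, Ssr2, Spcs3 and Sec11c rose in both strains. Of these only Ssr1 held in both strains with each mouse left out in turn. Spcs3 was lost in 6 of 8 such fits in IR floxed and 6 of 6 in IR/FoxO1 floxed mice, and Sec11c in 6 of 8 and 5 of 6. Tram1 and Spcs2 did not pass in either, and Spcs2 had a dimmer probe that moved the other way (-0.69 against 0.44 for the probe used).

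**Figure D2:**
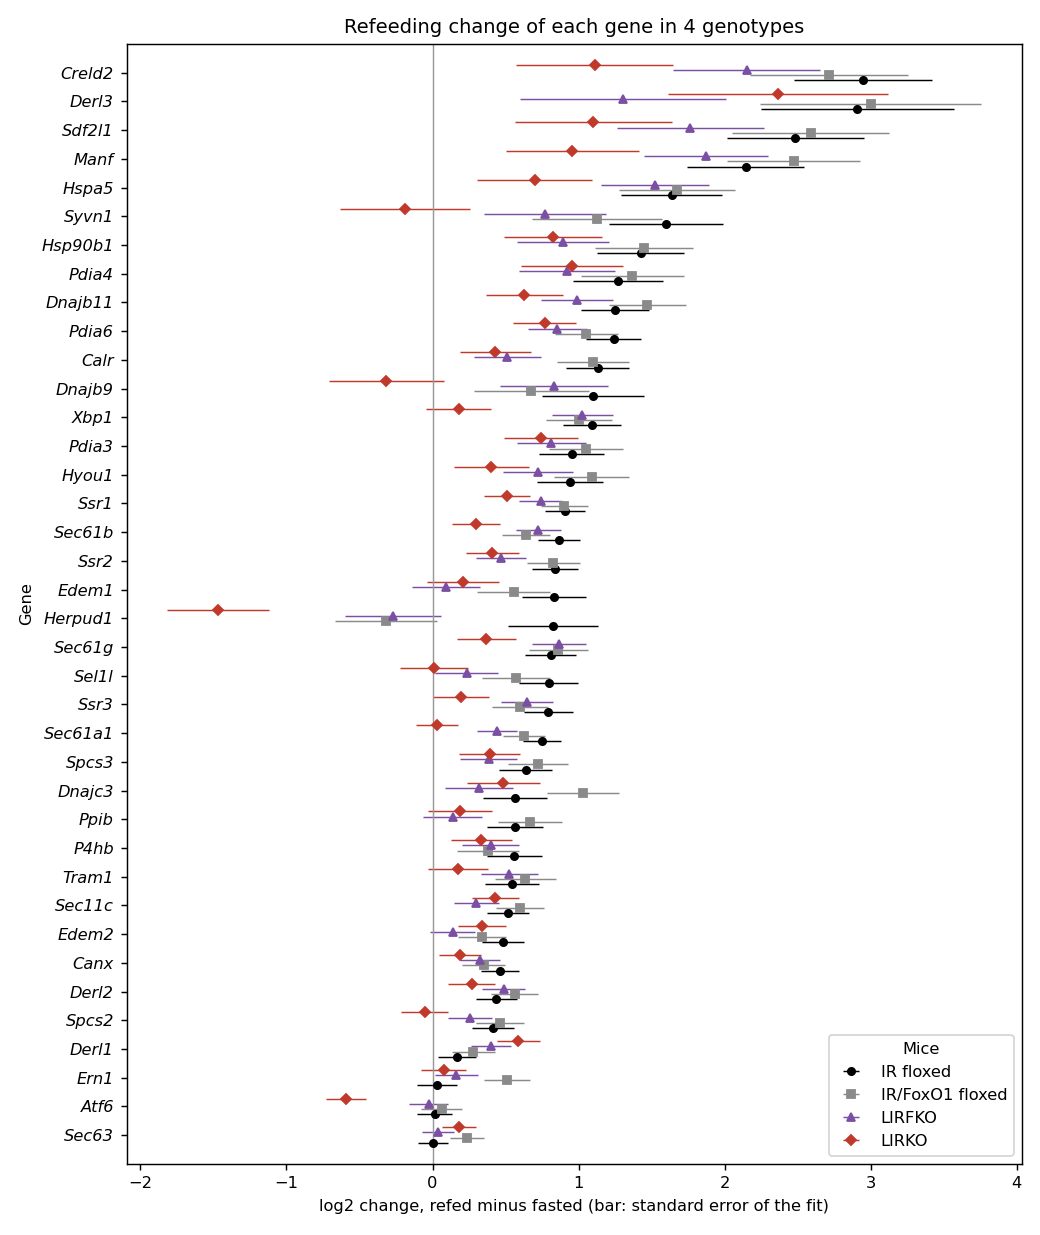
Refeeding change of each of the 38 genes (log2, refed minus fasted, horizontal axis) in 4 genotypes (symbols), with the SE of the limma fit as bars and genes ordered by the change in IR floxed mice. Creld2 (2.95), Derl3 (2.91), Sdf2l1 (2.48) and Manf (2.14) lead in IR floxed mice, and Herpud1 has the lowest LIRKO value, -1.47.

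The size of these responses varied between mice. IR floxed mice with lower numbers (IR.fl_Fast_486 and IR.fl_Fast_491 fasted, IR.fl_Refed_506 and IR.fl_Refed_508 refed) had a mean shift of 0.51 over the 38 genes, and those with higher numbers (IR.fl_Fast_542 and IR.fl_Fast_552 fasted, IR.fl_Refed_562 and IR.fl_Refed_566 refed) of 1.41; this split was chosen after seeing the data and has no test. Hspa5 differed by 0.87 in the first and 2.25 in the second set, Syvn1 by 0.53 and 2.77, and Creld2 by 2.01 and 3.98. The acinar markers were high in mouse IR.fl_Fast_486 of the first set. With the 4 libraries of acinar markers over 7 in no fit, 18 genes rose in IR floxed and 13 in IR/FoxO1 floxed mice, so the latter count fell by more than 1.5 times. With the compared groups fitted alone 7 and 19 rose, and without IRF.fl_Fast_523 10 rose in IR/FoxO1 floxed mice. The IR/FoxO1 floxed calls lost without that library included Hsp90b1 (adjusted p = 0.11 in limma), Pdia6 (0.070), Xbp1 (0.092) and Derl3 (0.16). Leaving out mouse IRF.fl_Refed_467 left 5 there, mouse IRF.fl_Fast_516 or IRF.fl_Refed_473 9. Under every one of these settings 0 fell, and 15 of the 25 IR floxed calls held with each mouse left out in turn. Only 4 of the 22 IR/FoxO1 floxed calls did so, namely Dnajb11, Manf, Creld2 and Ssr1. All refed IR/FoxO1 floxed mice carry lower numbers than the fasted mice of that strain, and all refed LIRKO mice higher numbers than the fasted LIRKO mice. In both, number and refeeding cannot be told apart.

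The 9 genes with an ERSE had a median change of 1.42 in IR floxed mice (8 rose), the 18 with a window and neither element 0.80 (10 rose), and the 2 with ERSE-II changed by 1.25 (Dnajb11) and 0.83 (Herpud1). The ranges overlap, from 0.46 to 2.95 with an ERSE and from 0.00 to 2.48 with neither, where Sdf2l1 is the highest. Elsewhere on the array 18 further genes had an ERSE in their window, with a median of 0.07, and 3 of them rose: Ero1b, an oxidase that recharges the disulfide isomerases (1.33 ± 0.26), Alg12, a mannosyltransferase of N-glycan assembly (0.66), and Hnrnpa3, an RNA-binding protein (0.52). The other 15 lay between -0.10 and 0.94 and did not pass. In this search of exact letters, some genes without a match rose past the threshold and some with a match did not. The 9 genes with no window were not searched, nor were other forms of the element or sequence outside the windows. No test was made of these groups.

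**Figure D3:**
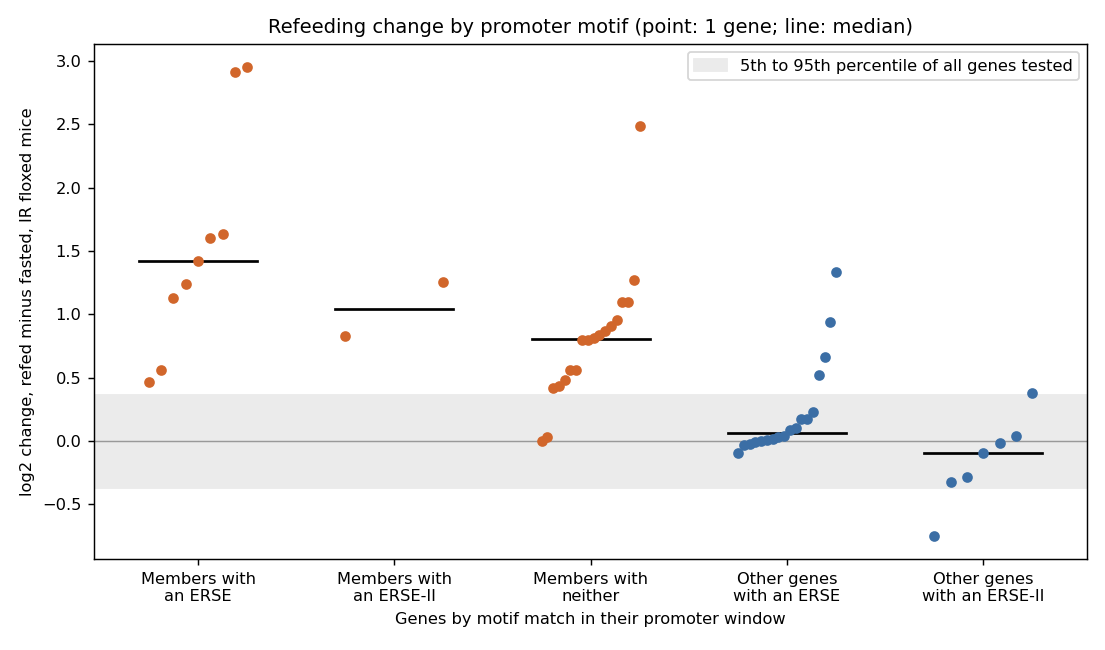
Refeeding change in IR floxed mice (log2, vertical axis) of genes grouped by motif match in their promoter window (horizontal axis), where points are genes, lines are medians and the shaded band runs from the 5th (-0.37) to the 95th percentile (0.36) of all genes. The 9 ER genes with an ERSE lie between 0.46 and 2.95, and 14 of the 18 other genes with an ERSE lie within the band.

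In LIRKO mice few of the genes passed on refeeding: 1 rose (Derl1) and 2 fell (Herpud1 and Atf6), against 0.983% and 0.867% of all genes. The median change was 0.35, and 33 of the 38 changes were positive. In limma 14 were higher and 2 lower at an unadjusted p under 0.05 (1478 and 1256 of all genes). In IR floxed mice those counts were 34 and 0 (1723 and 1492 of all genes). Of the 100 largest rises in LIRKO mice among all genes, 5 were of these genes, against 13 in IR floxed mice. The change was smaller than in IR floxed mice in 35 of the 38 genes. The mean over the 38 genes was 10.49, 10.54 and 11.02 in fasted and 10.61, 11.01, 11.16 and 11.46 in refed LIRKO mice, so the groups overlap. Only Derl1 had every refed library above every fasted one, and only Herpud1 and Atf6 every one below, and 6.06% of all genes did so in each direction. Markers of other cell types moved in the same comparison. Kupffer cell markers averaged 8.999 to 9.326 in fasted and 9.61 to 9.79 in refed LIRKO mice, where 11 of 11 had a positive change and 0 passed, and 8.579 to 8.993 in fasted and 8.24 to 8.47 in refed IR floxed mice. Hepatocyte markers averaged 14.46 to 14.63 in fasted and 13.83 to 14.34 in refed LIRKO mice, with 8 of 8 negative and 0 passing. The part of these markers in the results was not tested.

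Hspa5 was 13.47, 13.92 and 14.76 in fasted and 14.13, 14.68, 15.05 and 15.68 in refed LIRKO mice (0.70 ± 0.40, adjusted p = 0.52). Creld2 was 11.77, 12.54 and 13.92 fasted and 12.38, 14.04, 14.08 and 15.18 refed (1.11 ± 0.54, adjusted p = 0.41). In both genes the highest fasted value was that of mouse IR.KO_Fast_505 and the lowest refed value that of mouse IR.KO_Refed_558, and these cross. Mouse IR.KO_Fast_505 also had the highest acinar marker mean of the fasted LIRKO mice, and the part of these markers was not tested. Sdf2l1 changed by 1.10 ± 0.54, Manf by 0.96 ± 0.46, Xbp1 by 0.18 ± 0.22 and Sec61b by 0.30 ± 0.16, and Pdia6 came nearest the threshold among the chaperones and isomerases (0.77 ± 0.21, adjusted p = 0.061). Derl3 had the largest fitted rise of all genes in LIRKO mice (2.36 ± 0.75) and did not pass (adjusted p = 0.12), with 7.66, 10.03, 10.08 and 12.04 refed and 6.55, 8.10 and 8.34 fasted. The refed LIRKO mice were far apart in Derl3, and the lowest of them lay among the fasted mice. Within the slides holding both states the mean shift over the 38 genes was 0.62 in one and -0.41 in the other, which set mouse IR.KO_Fast_505 against mouse IR.KO_Refed_558, and 0.38 over all libraries. Without mouse IR.KO_Refed_558, 5 genes rose and 1 fell, and without mouse IR.KO_Refed_553 or IR.KO_Fast_550 none passed. Without mouse IR.KO_Refed_564 or IR.KO_Refed_565, or with no array block, 1 fell and 0 rose, and without mouse IR.KO_Fast_505 1 rose and 0 fell. With the compared groups alone 0 passed.

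The genes that passed in LIRKO mice were not those that passed in floxed mice: 0 of the 3 were among the 25 of IR floxed mice. Herpud1 was 12.07, 12.89 and 13.67 in fasted and 11.08, 11.19, 11.59 and 12.07 in refed LIRKO mice, a fall by 1.47 ± 0.35 (adjusted p = 0.023), with every refed mouse below every fasted one, the closest pair only beyond the decimals shown. Without mouse IR.KO_Fast_505 the change was -1.12 (adjusted p = 0.22). Derl1, a channel subunit of the degradation complex, rose from 11.43, 11.45 and 11.51 to 11.75, 11.94, 12.00 and 12.28 (0.59 ± 0.15, adjusted p = 0.032). Atf6 fell from 7.24, 7.40 and 7.63 to 6.78, 6.87, 6.91 and 6.99 (-0.59 ± 0.14, adjusted p = 0.022). With each of the 7 mice left out in turn, Herpud1 was lost 4 times, Atf6 5 times and Derl1 6 times.

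The difference of the refeeding responses was tested directly. Between LIRKO and IR floxed mice 1 gene passed, Herpud1, with a response lower by 2.29 ± 0.44 (adjusted p = 0.030), against 0.0978% of all genes higher and 0.0667% lower. Of the 38 differences 35 were negative with a median of -0.51. In that direction 13 had an unadjusted p under 0.05, against 1 in the other (843 and 941 of all genes). Next to Herpud1 were Sec61a1 (-0.72 ± 0.18, adjusted p = 0.12) and Atf6 (-0.61 ± 0.18, adjusted p = 0.20). Creld2 gave -1.84 ± 0.68 with a 95% interval of -3.23 to -0.44, Hspa5 -0.94 ± 0.50 (-1.96 to 0.09), Sdf2l1 -1.38 ± 0.68 (-2.77 to 0.00) and Xbp1 -0.91 ± 0.28 (-1.50 to -0.34), and none of the 4 passed after adjustment. The intervals are wide, so the size of these differences is poorly fixed. The Herpud1 call ended without the dye term, without the array block, with only the compared groups, without the acinar-marked libraries and without any of 9 single mice (adjusted p up to 0.37).

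In LIRFKO mice, which lack FoxO1 as well, 9 of the 38 genes rose on refeeding and 0 fell (0.987% and 0.823% of all genes), with a median of 0.52. The 9 were Creld2, Manf, Hspa5, Dnajb11, Pdia6, Xbp1, Sec61b, Sec61g and Ssr1, and each of them had risen in both floxed strains. Those that did not pass in IR/FoxO1 floxed mice without IRF.fl_Fast_523 included Hspa5, Pdia6 and Xbp1 (adjusted p = 0.17, 0.070 and 0.092 in limma). The mean over the 38 genes was 10.08, 10.09 and 10.31 in fasted and 10.82, 10.85, 10.88 and 11.06 in refed LIRFKO mice, with no overlap, and in 26 genes every refed library lay above every fasted one (5.77% of all genes). Hspa5 went from 12.66, 13.06 and 13.91 to 14.77, 14.83, 14.86 and 15.13 (1.52 ± 0.37, adjusted p = 0.030). Creld2 went from 10.66, 10.97 and 11.82 to 13.12, 13.55, 13.57 and 14.05 (2.15 ± 0.50, adjusted p = 0.025). Xbp1 went from 12.36, 12.51 and 12.51 to 13.27, 13.46, 13.48 and 13.88 (1.03 ± 0.21, adjusted p = 0.012). Refed LIRFKO mice lay close together in these 3 genes, and no fasted mouse reached them. Manf rose by 1.87 ± 0.43 and Sdf2l1 changed by 1.77 ± 0.50 (adjusted p = 0.066). Herpud1 changed by -0.27 ± 0.33 and Derl3 by 1.30 ± 0.71, neither past the threshold, and Atf6 (-0.03 ± 0.13) and Sec63 (0.04 ± 0.11) changed least.

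The LIRFKO calls rested on few mice. Without fasted mouse IRF.KO_Fast_525 none of the 9 passed, and without any other mouse 4 to 6 genes did. Slide as a block left 5, the compared groups alone 3, and the fits without acinar-marked libraries, which drop refed mouse IRF.KO_Refed_478, 5. Within the 1 slide holding both states the mean shift was 0.54, against 0.74 over all libraries. Tested against the response of IR/FoxO1 floxed mice, that of LIRFKO mice passed in none of the 38 genes (0 at an adjusted and 0 at an unadjusted p under 0.05 in limma; 0% of all genes higher and 0.00445% lower; median -0.22). Against the response of LIRKO mice 0 passed in limma (0.00889% of all genes higher and 0.0133% lower), with a median of 0.22. There 5 were higher and 0 lower at an unadjusted p under 0.05 (644 and 677 of all genes). Against LIRKO mice the difference was 0.83 ± 0.51 for Hspa5 (95% interval -0.23 to 1.88), 1.20 ± 0.45 for Herpud1 and 0.85 ± 0.29 for Xbp1. Single genes thus passed in LIRFKO mice that did not in LIRKO mice, while the difference between those responses did not pass for any of the 38. Line and FoxO1 loss cannot be told apart in that comparison.

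**Figure D4:**
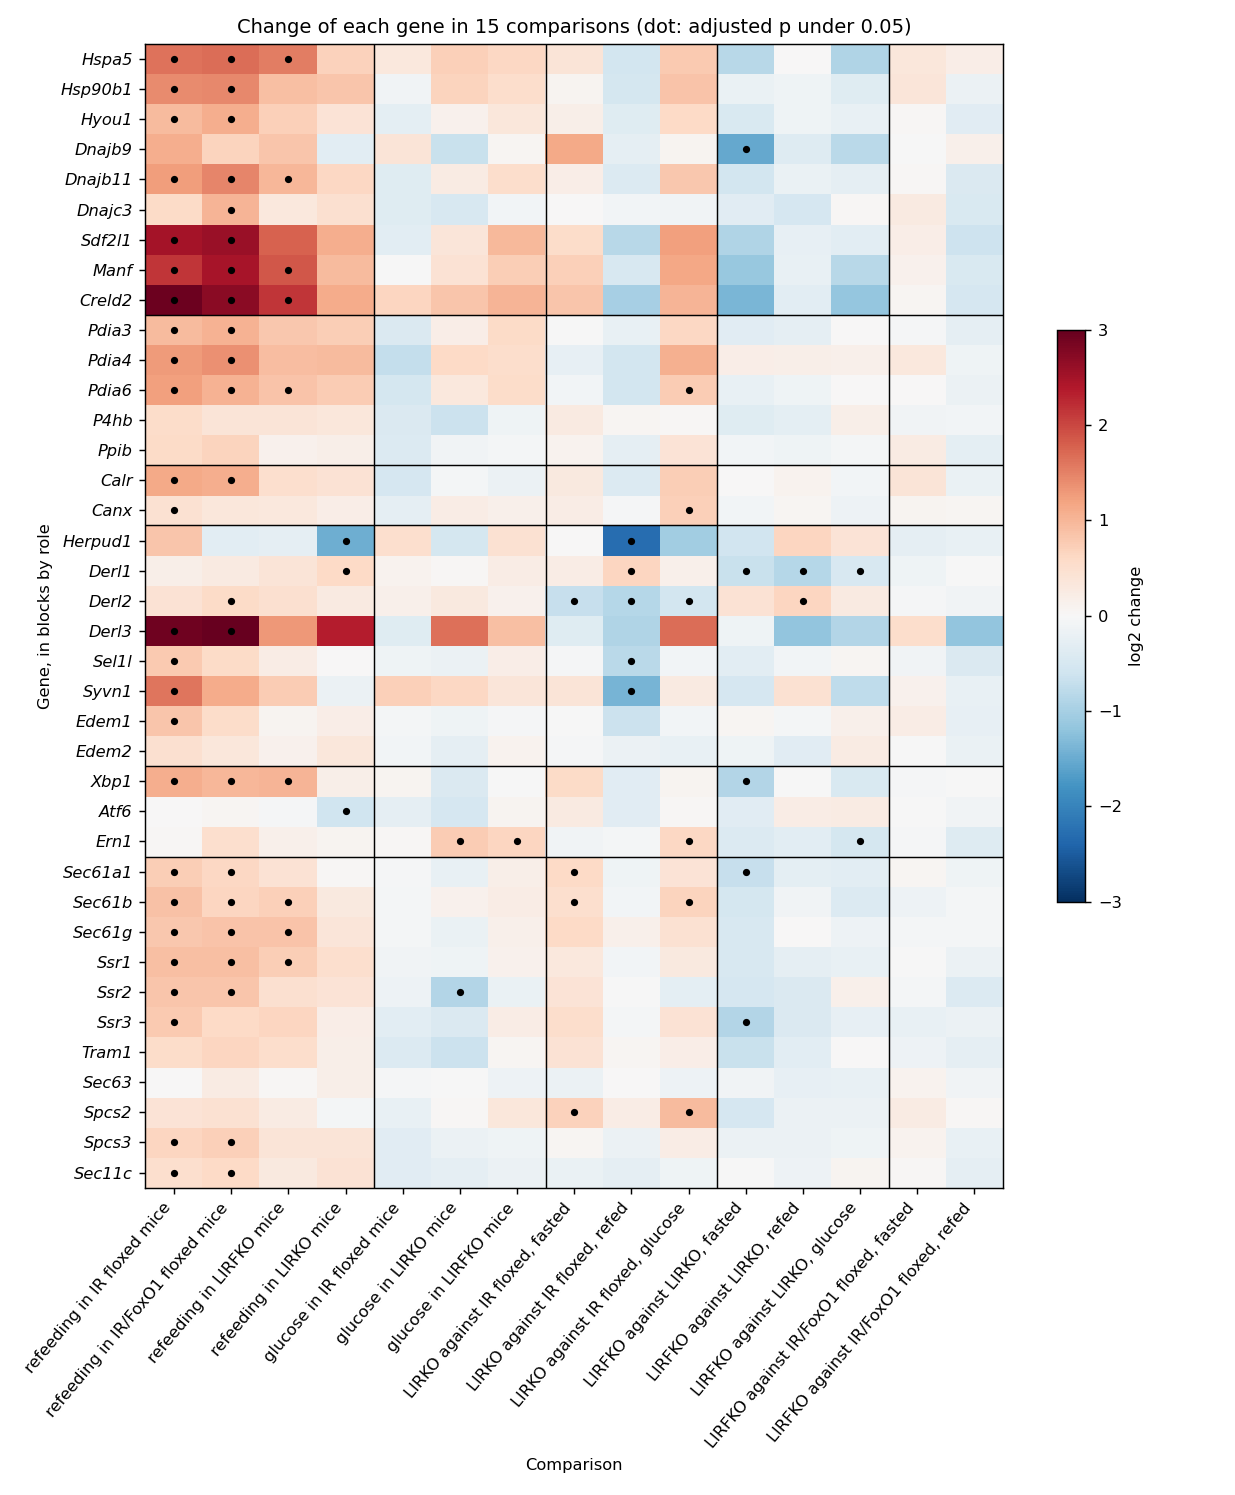
Log2 change (colour) of the 38 genes (rows, in blocks by role) in 15 comparisons (columns), with a dot where the adjusted p was under 0.05. Dots fill the columns of refeeding in floxed mice (25 and 22), thin out in LIRFKO mice (9) and leave 3 in LIRKO mice, of which Herpud1 and Atf6 are falls.

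Set against IR floxed mice in the same state, LIRKO mice had few genes past the threshold. In the fasted state 3 were higher and 1 lower (4.14% and 3.92% of all genes), in the refed state 1 and 4 (6.95% and 4.66%), and after glucose 5 and 1 (4.39% and 3.91%). Many of the other differences had 1 sign. In the fasted state 27 of the 38 were positive with a median of 0.23. Of these differences 10 were higher and 1 lower at an unadjusted p under 0.05 (2326 and 2169 of all genes). Refed, 32 were negative with a median of -0.28. At that level 1 was higher and 8 were lower (2697 and 2237 of all genes). After glucose 29 were positive with a median of 0.41, and 17 were higher and 2 lower at that level (2314 and 2251 of all 22485 genes). In 13 of the 38 every glucose LIRKO library lay above every glucose IR floxed one, as in 8.10% of all genes, and the mean shift over the 38 was 0.25 and 0.46 within slides and 0.45 over all libraries. Herpud1 in the refed state was 11.08 to 12.07 in LIRKO and 13.35 to 14.03 in IR floxed mice, lower by 2.29 ± 0.30 (adjusted p = 6.7e-06). In the fasted state the difference in the same gene was 0.00 ± 0.33 (95% interval -0.68 to 0.68).

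Derl2, a homologue of Derl1, was lower in LIRKO mice in all 3 states. Fasted it was 11.27, 11.44 and 11.68 against 12.04, 12.08, 12.09 and 12.22 (-0.69 ± 0.15, adjusted p = 0.0044). Refed it was 11.32, 11.72, 11.78 and 11.93 against 12.37, 12.39, 12.60 and 12.84 (-0.86 ± 0.14, adjusted p = 8.5e-05). After glucose it was 11.54, 11.63 and 11.74 against 12.10, 12.19 and 12.48 (-0.54 ± 0.16, adjusted p = 0.033). No LIRKO mouse reached a floxed mouse of its state, and the fasted and refed calls held with each mouse left out in turn. Derl1 went the other way in the refed state, at 11.75 to 12.28 in LIRKO and 11.26 to 11.58 in IR floxed mice (0.64 ± 0.13, adjusted p = 0.00095).

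The ubiquitin ligase pair Syvn1 and Sel1l was lower in refed LIRKO mice, by 1.40 ± 0.39 (adjusted p = 0.015) and 0.82 ± 0.20 (adjusted p = 0.0064). Syvn1 was 11.96, 12.08, 12.58 and 12.95 in refed LIRKO mice against 12.37 to 15.33 in refed IR floxed mice, so the groups overlap. Both calls were lost without refed IR floxed mouse IR.fl_Refed_562, at adjusted p of 0.31 and 0.11. Among the chaperones Hspa5 (-0.54 ± 0.34), Creld2 (-1.0 ± 0.47) and Sdf2l1 (-0.84 ± 0.46) did not pass in the refed state, and Pdia6 (-0.56 ± 0.19, adjusted p = 0.051) came close. In the same comparison 10 of 11 Kupffer cell markers were higher in LIRKO mice, and their part in these results was not tested. Mean shifts over the 38 genes within slides were -0.48, -0.13 and 0.06, against -0.36 over all libraries.

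Among single genes of the fasted state, Sec61a1 (0.59 ± 0.14, adjusted p = 0.0070), Sec61b (0.50 ± 0.15, adjusted p = 0.045) and Spcs2 (0.70 ± 0.15, adjusted p = 0.0046) were higher in LIRKO than in IR floxed mice. Spcs2, a signal peptidase subunit, was 10.58, 11.15 and 11.20 against 10.11, 10.16, 10.29 and 10.46, with no overlap, and after glucose it was 10.73, 10.92 and 11.18 against 9.82, 9.88 and 10.20 (0.96 ± 0.16, adjusted p = 0.00047). These Spcs2 values are of its brighter probe. The dimmer one, which moved the other way on refeeding in IR floxed mice, was not compared alone between these genotypes. Without mouse IR.KO_Fast_505 only the lower Derl2 passed in the fasted state, without mouse IR.KO_Fast_550 1 gene was higher and 1 lower, and without mouse IR.KO_Fast_545 7 were higher and 1 lower. With the compared groups alone 0 were higher and 1 lower. The mean shift over the 38 genes was -0.20 in one slide and 0.39 in the other, against 0.22 over all libraries. Kupffer cell markers averaged 8.999 to 9.326 in fasted LIRKO against 8.579 to 8.993 in fasted IR floxed mice, with 0 of 11 past the threshold. After glucose they averaged 8.86 to 9.44 against 8.12 to 8.76, with 1 of 11 higher, and 3 of 8 hepatocyte markers were lower. Their part was not tested. Dnajb9 came near the threshold (1.14 ± 0.37, adjusted p = 0.058), at 10.19, 10.25 and 11.29 in LIRKO and 9.20 to 9.80 in IR floxed mice. After glucose Pdia6, Canx, Ern1, Sec61b and Spcs2 were higher in LIRKO mice and Derl2 lower. Canx was 11.44, 11.60 and 11.75 in LIRKO and 10.61, 10.77 and 11.07 in IR floxed mice (0.72 ± 0.15, adjusted p = 0.0025). The glucose IR floxed mice included mouse IR.fl_GTT_659 with acinar markers at 10.53, and without the acinar-marked libraries 6 were higher and 0 lower. Without mouse IR.KO_GTT_690, whose Insr lay within the IR floxed range, 2 were higher and 0 lower, without mouse IR.fl_GTT_699 3 and 0, and without mouse IR.KO_GTT_667 11 and 0. With the compared groups alone none passed.

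**Figure D5:**
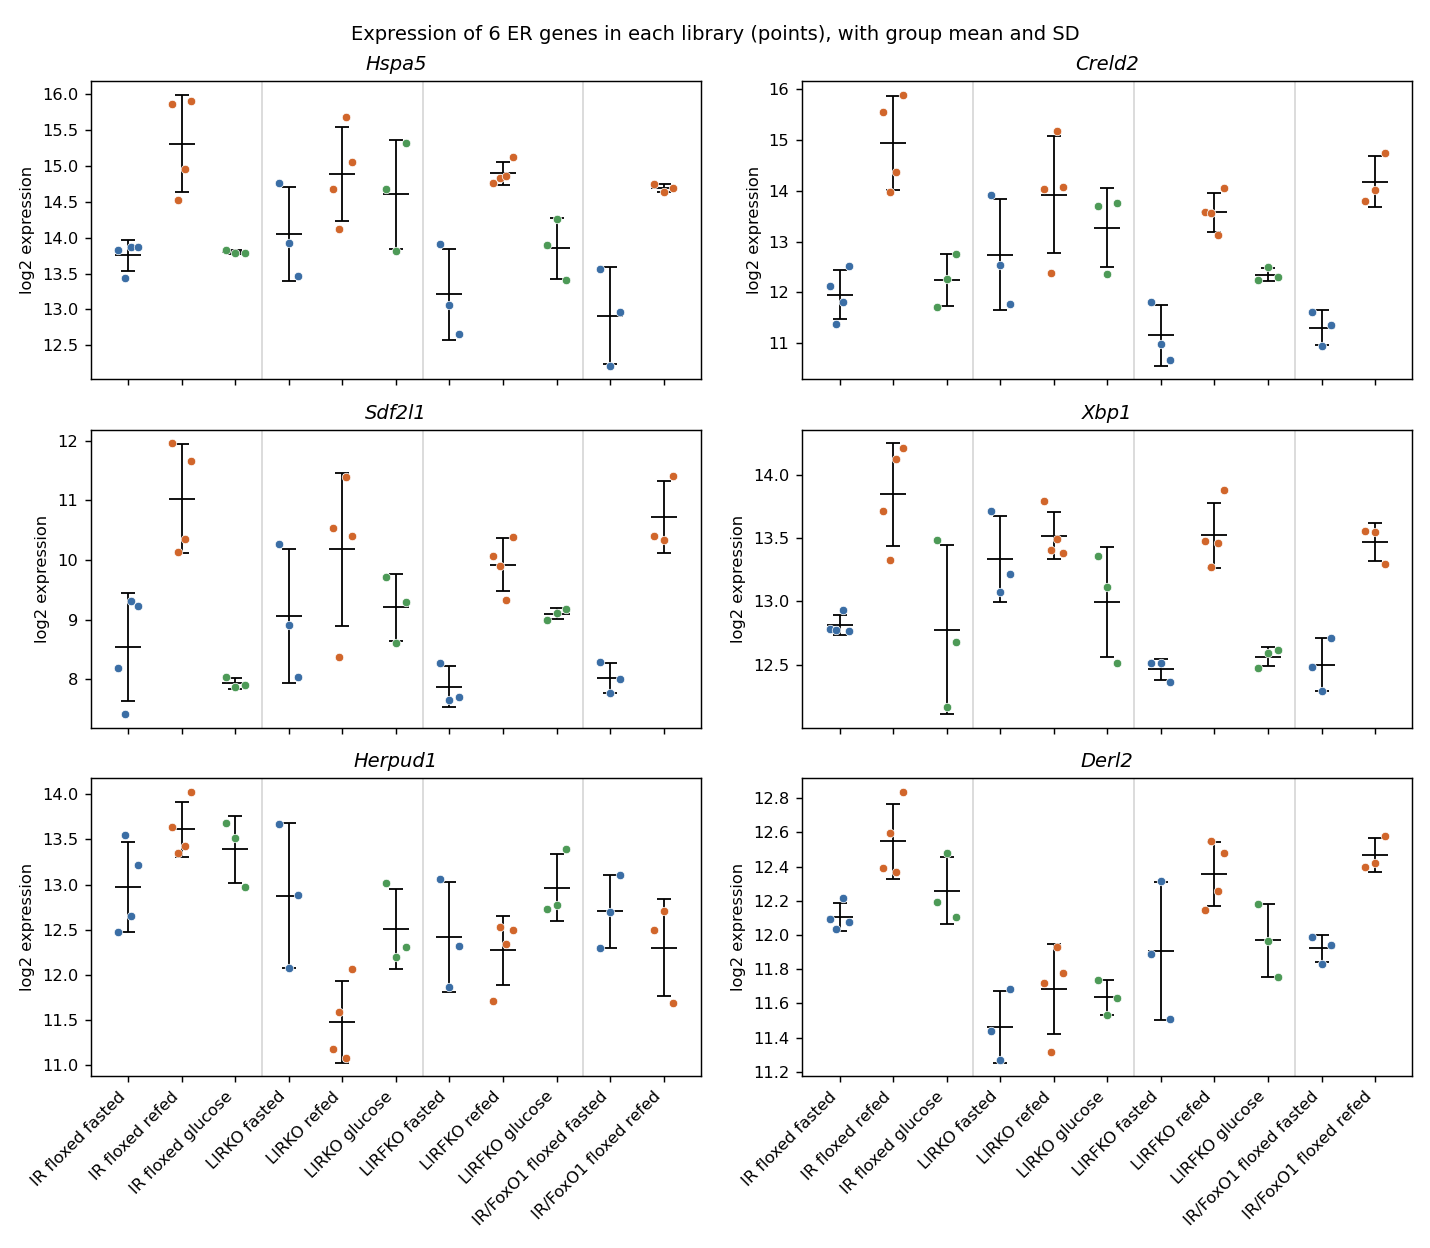
Log2 expression (vertical axes) of 6 genes in each library (points) of the 11 groups (horizontal axis), with group mean and SD as bars. Hspa5, Creld2, Sdf2l1 and Xbp1 are higher in refed than in fasted floxed mice, Herpud1 is lowest in refed LIRKO mice (11.08 to 12.07), and Derl2 is lower in LIRKO mice (11.27 to 11.93) than in IR floxed mice (12.04 to 12.84) in each state.

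Between LIRFKO and IR/FoxO1 floxed mice none of the 38 genes passed. In the fasted state 0 passed and 0 had an unadjusted p under 0.05 in limma (0.00445% of all genes higher and 0% lower, or 451 and 368 genes at an unadjusted p under 0.05), and the library IRF.fl_Fast_523, with low Insr and Foxo1, was 1 of the 3 controls. In the refed state 0 passed (0.147% of all genes higher and 0.231% lower). No slide held both of these refed groups, so slide and genotype cannot be told apart in the refed state. With an unadjusted p under 0.05, 0 were higher and 2 lower (1192 and 1141 of all genes). Of the 38 differences 34 were negative, with a median of -0.20. The refed difference was 0.20 ± 0.39 for Hspa5 (95% interval -0.60 to 0.99), -0.50 ± 0.53 for Creld2 (-1.59 to 0.58) and -0.22 ± 0.34 for Herpud1 (-0.93 to 0.48). Each of these intervals spans 0.

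Against LIRKO mice, LIRFKO mice were lower in 5 and higher in 0 genes when fasted (3.29% of all genes higher, 3.23% lower), higher in 1 and lower in 1 when refed (3.66% and 4.43%), and lower in 2 and higher in 0 after glucose (3.85% and 3.73%). LIRKO and LIRFKO mice are of different lines, so line and FoxO1 loss cannot be told apart. The signs ran mostly 1 way when fasted, with 34 of the 38 negative and a median of -0.43, and 17 were lower and 1 higher at an unadjusted p under 0.05 (2141 and 2147 of all genes). In 11 of the 38 every fasted LIRFKO library lay below every fasted LIRKO one, as in 8.26% of all genes. The mean over the 38 was 10.08 to 10.31 in fasted LIRFKO and 10.49 to 11.02 in fasted LIRKO mice, a shift of -0.52, and -0.41 within the 1 slide that held both. Refed and after glucose 29 and 24 were negative, with medians of -0.19 and -0.17. Derl1 was lower in all 3 states, and Derl2 was higher in the refed state, the reverse of the LIRKO differences from IR floxed mice; both sets of differences share the LIRKO libraries. Refed Derl1 was 11.04, 11.16, 11.34 and 11.36 in LIRFKO and 11.75 to 12.28 in LIRKO mice (-0.85 ± 0.13, adjusted p = 6.5e-05). Refed Derl2 was 12.15, 12.26, 12.48 and 12.55 in LIRFKO and 11.32 to 11.93 in LIRKO mice (0.65 ± 0.14, adjusted p = 0.0030). Neither overlapped, and both calls held with each mouse left out in turn. All refed LIRFKO mice carry lower numbers than the refed LIRKO mice, and all glucose LIRFKO mice higher numbers than the glucose LIRKO mice. In both states, number and genotype cannot be told apart. Fasted Dnajb9 was 8.80, 9.04 and 9.40 in LIRFKO and 10.19, 10.25 and 11.29 in LIRKO mice, lower by 1.54 ± 0.40 (adjusted p = 0.017). Fasted Xbp1 was 12.36, 12.51 and 12.51 against 13.07, 13.22 and 13.71 (-0.87 ± 0.23, adjusted p = 0.018), and Ssr3 and Sec61a1 were lower by 0.88 ± 0.19 and 0.70 ± 0.15. Fasted mouse IR.KO_Fast_505 was the highest LIRKO mouse in Dnajb9, Xbp1 and Ssr3, and without it 2 genes were lower. Without mouse IRF.KO_Fast_518 2 were lower, without mouse IR.KO_Fast_550 1 and without mouse IR.KO_Fast_545 10, and with the compared groups alone 0. Kupffer cell markers were lower in refed LIRFKO than in refed LIRKO mice in 8 of 11 cases. Among fasted controls, IR/FoxO1 floxed mice were likewise lower than IR floxed mice in 34 of the 38 genes, with a median of -0.25.

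Between the floxed control lines none of the 38 genes passed, fasted or refed. In the fasted state 0 passed (0.0222% of all genes higher in IR/FoxO1 floxed mice and 0.0133% lower), and in the refed state 0 (0.0712% and 0.0133%). At an unadjusted p under 0.05 in limma 0 were higher and 5 lower when fasted (894 and 788 of all genes). Refed, 0 were higher and 5 lower at that level (802 and 572 of all genes). The signs nonetheless ran 1 way, with 34 and 35 of the 38 negative and medians of -0.25 and -0.19. Within slides holding both lines the mean shift over the 38 genes was -0.47 and -0.43 fasted and -0.39 refed. Over all libraries it was -0.25 fasted and -0.26 refed. Herpud1 was nearest the threshold in the refed state, at 11.70, 12.50 and 12.71 in IR/FoxO1 floxed against 13.35 to 14.03 in IR floxed mice (-1.43 ± 0.33, adjusted p = 0.080). All 3 refed IR/FoxO1 floxed mice thus lay below all refed IR floxed mice in Herpud1, as the refed LIRKO mice did. The refed IR/FoxO1 floxed mice also carry lower numbers than all refed IR floxed mice, so number and line cannot be told apart.

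After glucose for 60 min at most 2 of the 38 genes passed in any genotype. In IR floxed mice 0 of the 38 passed (0.142% of all genes higher and 0.0178% lower). Counted at an unadjusted p under 0.05, 0 were higher and 3 lower (1101 and 810 of all genes). The median was -0.15, with mean shifts of -0.52 and -0.36 within slides (-0.24 over all libraries). Hspa5 was 13.78, 13.79 and 13.83 after glucose against 13.43 to 13.88 fasted (0.33 ± 0.40), and Creld2 was 11.72, 12.26 and 12.75 against 11.38 to 12.51 (0.64 ± 0.54). In LIRKO mice Ern1 rose and Ssr2 fell (0.325% and 0.271% of all genes), and in LIRFKO mice Ern1 rose (0.342% and 0.311%). The median was -0.04 in LIRKO mice. In LIRFKO mice 28 of the 38 changes were positive with a median of 0.19. Among them 4 were higher and 0 lower at an unadjusted p under 0.05 (1415 and 1348 of all genes). The mean over the 38 genes was 10.33, 10.50 and 10.64 after glucose in LIRFKO mice, above all fasted ones (10.08 to 10.31), and in 10 genes every glucose library lay above every fasted one, as in 6.58% of all genes. The shift was 0.33 and 0.24 within slides and 0.33 over all libraries, where refeeding gave 0.74. Ern1 was 8.15, 8.21 and 8.83 after glucose against 7.42, 7.49 and 7.95 fasted in LIRKO mice (0.77 ± 0.17, adjusted p = 0.036), and 7.61, 7.64 and 8.12 against 7.01, 7.24 and 7.33 in LIRFKO mice (0.64 ± 0.15, adjusted p = 0.049). No glucose library overlapped a fasted one in either genotype. In IR floxed mice Ern1 changed by 0.03 ± 0.16, and the difference between the LIRKO and IR floxed glucose responses was 0.74 ± 0.21 (adjusted p = 0.47). For that difference 0 of 38 genes passed, with 4 higher and 2 lower at an unadjusted p under 0.05, and 0% of all genes passed in either direction (756 and 786 at an unadjusted p under 0.05). The Ern1 and Ssr2 calls in LIRKO mice were lost without mouse IR.KO_GTT_690 and without mouse IR.KO_Fast_505, and without mouse IR.KO_GTT_697 1 gene rose and 4 fell. The Ern1 call in LIRFKO mice was lost without mouse IRF.KO_GTT_726, IRF.KO_GTT_725, IRF.KO_Fast_518 or IRF.KO_Fast_525, with slide as a block and without IRF.fl_Fast_523. No gene passed in either knockout without the dye term, without the array block, with the compared groups alone or without the acinar-marked libraries. In every genotype the glucose mice carry higher mouse numbers than the fasted mice, so number and treatment cannot be told apart.

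Beyond the 38, genes of neighbouring steps moved with them in part. In IR floxed mice 8 of 18 other ER folding genes rose on refeeding and 0 fell, among them Txndc5 (0.82 ± 0.14, adjusted p = 0.00086), a disulfide isomerase, Ero1b (adjusted p = 0.0037) and Erp44 (0.89 ± 0.18). In IR/FoxO1 floxed mice 4 rose, in LIRFKO mice 1 (Txndc5) and in LIRKO mice 0. Of 17 N-glycosylation genes 5 rose in each floxed strain, 3 in LIRFKO and 1 in LIRKO mice. The oligosaccharyltransferase subunit Ostc rose in all 4 genotypes, by 1.17 ± 0.17 in IR floxed, 1.22 ± 0.20 in IR/FoxO1 floxed, 1.11 ± 0.18 in LIRFKO and 0.83 ± 0.20 in LIRKO mice (adjusted p = 0.022 in the last). Of 21 genes of ER to Golgi transport 7, 4, 5 and 0 rose in that order of genotypes, and 1 fell in LIRFKO mice, with Sec23b, a COPII coat subunit, at 1.18 ± 0.19, 1.41 ± 0.22 and 1.01 ± 0.20 where it rose.

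Other translocation genes (15) gave 3 rises and 1 fall in IR floxed mice, 2 and 1 in IR/FoxO1 floxed, 1 and 0 in LIRKO and 0 and 0 in LIRFKO mice. Other degradation genes (13 measured) gave 1 rise in IR floxed mice, Selenok (0.57 ± 0.13), and none in the other genotypes. Among 8 other sensors and proteases Atf6b rose in both floxed strains (0.52 ± 0.14 and 0.59 ± 0.16), and none passed in the knockouts. The Perk and Atf4 arm did not follow the chaperones as a set. Of its 10 genes 1 rose and 2 fell in IR floxed mice, 0 and 2 in IR/FoxO1 floxed, 0 and 2 in LIRKO and 0 and 0 in LIRFKO mice. Ddit3, which encodes Chop, rose by 1.52 ± 0.35 in IR floxed mice (adjusted p = 0.013), while Cebpb fell by 1.39 ± 0.19 there, by 1.29 ± 0.22 in IR/FoxO1 floxed and by 1.0 ± 0.22 in LIRKO mice.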

How the data were processed

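The authors deposited 1 table of log2 values for 38 single channels of 20 Agilent arrays of 2 dyes, and per the submitters' processing notes R 3.1.0 and limma 3.20.1 were used. The background correction and normalization (not given in the sources used here) bear on every value, and that the scale is log2 was read from the range, whose highest value is that of a 16-bit scanner. Each gene was represented by its probe of highest mean (26 of the 38 genes had 1 probe, 12 several). limma 3.58.1 in R 4.3.3 fitted 11 group means over 37 samples, allowing for dye and for the correlation of samples on 1 array (consensus 0.358). 21 comparisons were tested with Benjamini-Hochberg adjustment over 22485 genes within each. Samples were grouped by title, and 1 sample whose labels conflict on its treatment, IRF.KO_GTT_724, was left out. The mice are separate animals, and refeeding, glucose and genotype comparisons share groups. The fit was tested on simulated data. The genes and lists were chosen with earlier results of these data known.

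Named with full statistics were the 5 largest changes past the threshold, the 2 smallest, and Hspa5, Hsp90b1, Xbp1, Herpud1, Sdf2l1, Creld2, Manf, Dnajb9, Pdia6 and Sec61b, with up to 3 genes of smallest p from each further list; other genes were named after their values were seen. Alternatives were slide as a block, no dye term, no array block, the compared groups alone, the mean of a gene's probes, genes above the median level, quantile normalization, IRF.fl_Fast_523 in no fit and each mouse left out in turn. The fits without acinar-marked libraries and the split by mouse number were added after seeing the data. Promoter sequences are from RefSeq, build GRCm38.p6. Protein sequences were not used here.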

Additional observations from a re-analysis of the deposited data

Results flagged for a closer look

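Among 156 sets of 4 samples (38 genes and their mean in each of the 4 groups of that size), 11 had a value standing apart by Dixon's test at the 95% level, where chance gives about 1 in 20, or 7.8. In fasted IR floxed mice Hspa5 was 13.43 in mouse IR.fl_Fast_552 (others 13.83 to 13.88) and Sec61a1 11.55 in the same mouse (others 12.11 to 12.15). Mouse IR.fl_Fast_491 of that group was apart in Sel1l (8.75, others 8.24 to 8.32), Xbp1 (12.93, others 12.77 to 12.78) and Sec63 (8.97, others 8.77 to 8.79). In refed IR floxed mice Pdia6 was 13.81 and P4hb 12.77 in mouse IR.fl_Refed_508 (others 14.35 to 14.43 and 13.24 to 13.32), and Ssr2 was 10.36 in mouse IR.fl_Refed_506 (others 10.68 to 10.73). In refed LIRFKO mouse IRF.KO_Refed_524 P4hb was 13.27 (others 12.79 to 12.84). In refed LIRKO mice Pdia3 was 10.81 in mouse IR.KO_Refed_558 (others 12.01 to 12.22) and Ssr2 10.87 in mouse IR.KO_Refed_564 (others 10.42 to 10.49).

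The refeeding response of Herpud1 differed between LIRKO and IR floxed mice by -2.29 (95% interval -3.20 to -1.39, adjusted p = 0.030).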

How the results depend on the processing

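Counts below are of the 38 genes past the threshold, higher and lower together. None of the 55 changes past the threshold that were followed gene by gene changed sign under any alternative run; changes near 0 that did not pass were not followed. Quantile normalization anew left each count within 1.5 times. With only the groups compared in the fit, 7 genes passed for refeeding in IR floxed mice (25 in the full fit), 0 in LIRKO (3) and 3 in LIRFKO mice (9). For glucose 0 passed in LIRKO (2) and 0 in LIRFKO mice (1), for LIRKO against IR floxed 1 fasted (4) and 0 after glucose (6), for LIRFKO against LIRKO 0 fasted (5), 6 refed (2) and 0 after glucose (2), and for the LIRKO difference in refeeding response 0 (1). Those fits have fewer samples. Without the dye term refeeding in IR/FoxO1 floxed mice gave 13 (22), glucose in LIRKO and LIRFKO mice 0 each, LIRFKO against LIRKO after glucose 1 and the response difference 0. Without the array block refeeding in LIRKO mice gave 1, and the last 4 comparisons named 0, 0, 1 and 0. With slide as a block refeeding in LIRFKO mice gave 5, glucose in LIRFKO mice 0 and LIRFKO against LIRKO after glucose 1. Without IRF.fl_Fast_523 refeeding in IR/FoxO1 floxed mice gave 10 and glucose in LIRFKO mice 0. With the mean of a gene's probes LIRKO against IR floxed gave 2 fasted and 8 refed (5). Over genes above the median level it gave 7 fasted and 10 after glucose, LIRFKO against LIRKO fasted 9 and the floxed lines refed 1 (0), with fewer genes tested. Without the acinar-marked libraries (added after seeing the data) refeeding gave 13 in IR/FoxO1 floxed and 5 in LIRFKO mice, glucose 0 in LIRKO and 0 in LIRFKO mice, LIRFKO against LIRKO after glucose 1 and the response difference 0. The cause of these changes was not tested beyond the sizes named.

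With each mouse left out in turn, refeeding gave 17 to 25 in IR floxed, 5 to 20 in IR/FoxO1 floxed, 0 to 6 in LIRKO and 0 to 6 in LIRFKO mice. Glucose gave 0 to 5 in LIRKO and 0 to 1 in LIRFKO mice. LIRKO against IR floxed gave 1 to 8 fasted, 3 to 8 refed and 2 to 11 after glucose. LIRFKO against LIRKO gave 1 to 10 fasted, 2 to 2 refed and 0 to 1 after glucose, and the response difference 0 to 2.

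The number of mice and signals near the top of the scale limit the precision.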

Other observations

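The library IRF.KO_GTT_724, whose labels name both glucose and fasting, had a mean of 10.35 over the 38 genes. Fasted LIRFKO mice lay between 10.08 and 10.31 and glucose LIRFKO mice between 10.33 and 10.64.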
